A study of Mus musculus with 28 samples.

Results

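The 10 genes Lgr5, Lgr4, Lrig1, Tnfrsf19, Sox9, Axin2, Rnf43, Znrf3, Myc and Ccnd1 mark epithelial stem cells or answer to Wnt signalling, and their RNA was followed in the mouse gastric corpus with age and with a PPARD transgene. They were taken by symbol from a table of read counts for 49492 gene symbols. All 10 had a row, and all 10 were among the 15812 genes that passed the filter on low counts. Epithelial cells had been scraped by hand from the corpus, the acid-secreting main body of the stomach, and their polyadenylated RNA was sequenced in 28 libraries. The 14 villin-PPARD libraries came from mice carrying PPARD, a fatty-acid-sensing nuclear receptor, as a villin transgene, at 10 weeks (5 libraries), 25 weeks (4 libraries) and 55 weeks (5 libraries). The 14 WT libraries came from littermates of the same ages, in the same numbers. The villin promoter is best known from the epithelium of the intestine, so how many corpus cells carry the transgene product is not given by the labels. Strain and sex are not stated there either. The labels do not say outright that each library is a separate mouse, and p-values measure the spread between these libraries.

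Wnt proteins act on Frizzled and Lrp receptors and keep beta-catenin from being destroyed, which lets it switch on target genes together with TCF and LEF factors. R-spondins strengthen the signal by binding Lgr4 or Lgr5 and removing Rnf43 and Znrf3, ubiquitin ligases that clear Frizzled from the cell surface. Rnf43, Znrf3 and Axin2 are themselves Wnt targets, so they form negative feedback. In the corpus, Lgr5 marks a subset of chief cells at the gland base, and proliferating cells lie in the isthmus nearer the surface.

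Total counts ranged from 10982888 to 30891108 per library. Levels are CPM, reads of a gene set against the reads of its library in the genes that passed the filter, scaled with TMM factors. The test is edgeR's quasi-likelihood F test on all 28 libraries, two-sided and with Benjamini-Hochberg adjustment over the 15812 genes. A gene is called at an adjusted p under 0.05. As a check of the genotype, Ppard was 1.48-fold higher in villin-PPARD than in WT libraries at 10 weeks, 1.24-fold at 25 weeks and 1.17-fold at 55 weeks, called each time, with libraries that overlapped at 25 and 55 weeks. The labels do not give the species of the transgene, so whether its reads were counted under mouse Ppard is unknown. Vil1, whose promoter drives the transgene, was 3.85-fold, 4.18-fold and 9.68-fold higher at these ages. At 55 weeks Atp4a, the parietal proton pump, was at 101 CPM in the lowest villin-PPARD library and 3634 CPM in the lowest WT library. Gkn1, a pit cell protein, was at 6688.6 and 41679.6 CPM in the lowest libraries of the same groups. Lowest values alone do not show whether groups overlapped, and the ranges of the summed parietal and pit cell markers are given below. Most listed parietal, chief and pit cell markers were called lower in villin-PPARD libraries at that age, as counted below. These are bulk samples, in which fewer cells of a type and less RNA per cell cannot be told apart. A tag in the column names divides the libraries into 2 library groups of unstated meaning. Replicates 4 and 5 of 10 weeks and every 55-week library form the second. The remaining libraries form the first, apart from WT replicate 3 of 25 weeks, whose tag reads replacement.

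Upstream sequences are shown for 3 members, Axin2 and Rnf43, which rose at 55 weeks, and Tnfrsf19, which fell. Promoters of 5 members, 7 in all, were found in the RefSeq table of the GRCm38.p6 build: those of Axin2, Rnf43, Tnfrsf19, Lgr4 and Lrig1. It held no entry for Lgr5, Sox9, Myc, Ccnd1 and Znrf3, so the windows leave out most members called at 55 weeks. The 250 bases before each start are given 5′ to 3′ on the strand of the gene. Capitals mark a TCF/LEF word on either strand, where the words searched were CTTTGAA, then CTTTGAT, then CTTTGTA, then CTTTGTT.
Axin2, chr11:108920099-108920348, plus strand: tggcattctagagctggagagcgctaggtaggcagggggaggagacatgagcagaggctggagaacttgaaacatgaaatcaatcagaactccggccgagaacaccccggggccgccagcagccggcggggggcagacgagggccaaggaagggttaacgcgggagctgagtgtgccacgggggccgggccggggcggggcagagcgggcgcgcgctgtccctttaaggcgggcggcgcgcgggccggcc
Rnf43, first start, chr11:87662837-87663086, plus strand: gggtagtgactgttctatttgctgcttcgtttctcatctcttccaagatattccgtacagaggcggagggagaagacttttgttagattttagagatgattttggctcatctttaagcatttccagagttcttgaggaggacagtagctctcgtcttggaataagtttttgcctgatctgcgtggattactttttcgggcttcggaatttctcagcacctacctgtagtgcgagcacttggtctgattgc
Tnfrsf19, first start, chr14:61046856-61047105, minus strand: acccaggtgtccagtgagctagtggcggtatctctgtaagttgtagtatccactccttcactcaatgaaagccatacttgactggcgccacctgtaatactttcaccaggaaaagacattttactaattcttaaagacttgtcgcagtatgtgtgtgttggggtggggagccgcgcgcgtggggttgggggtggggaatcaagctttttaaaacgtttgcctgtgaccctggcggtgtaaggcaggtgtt
Tnfrsf19, second start, chr14:61037988-61038237, minus strand: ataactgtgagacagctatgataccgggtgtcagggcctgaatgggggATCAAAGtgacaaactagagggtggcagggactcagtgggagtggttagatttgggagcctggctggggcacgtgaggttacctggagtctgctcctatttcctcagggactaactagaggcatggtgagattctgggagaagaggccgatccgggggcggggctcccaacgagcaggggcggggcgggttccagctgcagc
Axin2's window was rich in G and C (69.2%, against a median of 52.4% over 32851 promoters), and Rnf43's was poor (44.4%). Among the 7 member windows, 1 held a TCF/LEF word, the second of Tnfrsf19, where CTTTGAT lies on the opposite strand, 202 to 196 bases before the start. The bases just after the RefSeq start were found whole in a GENCODE transcript of the gene for the other 5 windows but for neither start of Tnfrsf19, whose first start lies outside the GENCODE bounds of the gene. Of the 32851 promoters searched, 14.8% held such a word and 14% held AGGTCA, a half-site of nuclear receptors, which none of the 7 member windows held. These counts describe letters in short windows and say nothing about the binding of any factor.

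At 55 weeks the 10 genes split: Lgr5 and Tnfrsf19 fell 14.4-fold and 9.45-fold in villin-PPARD libraries, 5 genes rose (Myc, Sox9, Ccnd1, Axin2 and Rnf43), and 3 (Lgr4, Lrig1 and Znrf3) missed the threshold. Called members thus numbered 5 higher and 2 lower of 10, where 31.7% of all tested genes were called higher and 27.6% lower, which is not far from the members' share of calls. The median log2 difference, villin-PPARD minus WT, was 0.47 over the 10 members and 0.03 over all genes. At 10 weeks 2 members were called higher and 0 lower, against 17.9% and 16.2% of all genes. At 25 weeks 3 were called higher and 1 lower, against 21% and 18.6% of all genes.

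Directions depend on the scaling. With libraries scaled by their totals alone in place of TMM, the median log2 difference of all genes was 0.43 at 55 weeks (0.03 with TMM) and 0.15 at 25 weeks (-0.01 with TMM), and differences here are to be read relative to that shift. The share of called genes that were higher was then 78.9% at 55 weeks (53.4% with TMM) and 74.5% at 25 weeks (53% with TMM). The 7 members called at 55 weeks kept their direction and call under both other scalings, while Lgr4 (0.65) and Znrf3 (0.45) also passed the threshold when scaled by totals alone.

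**Figure D1:**
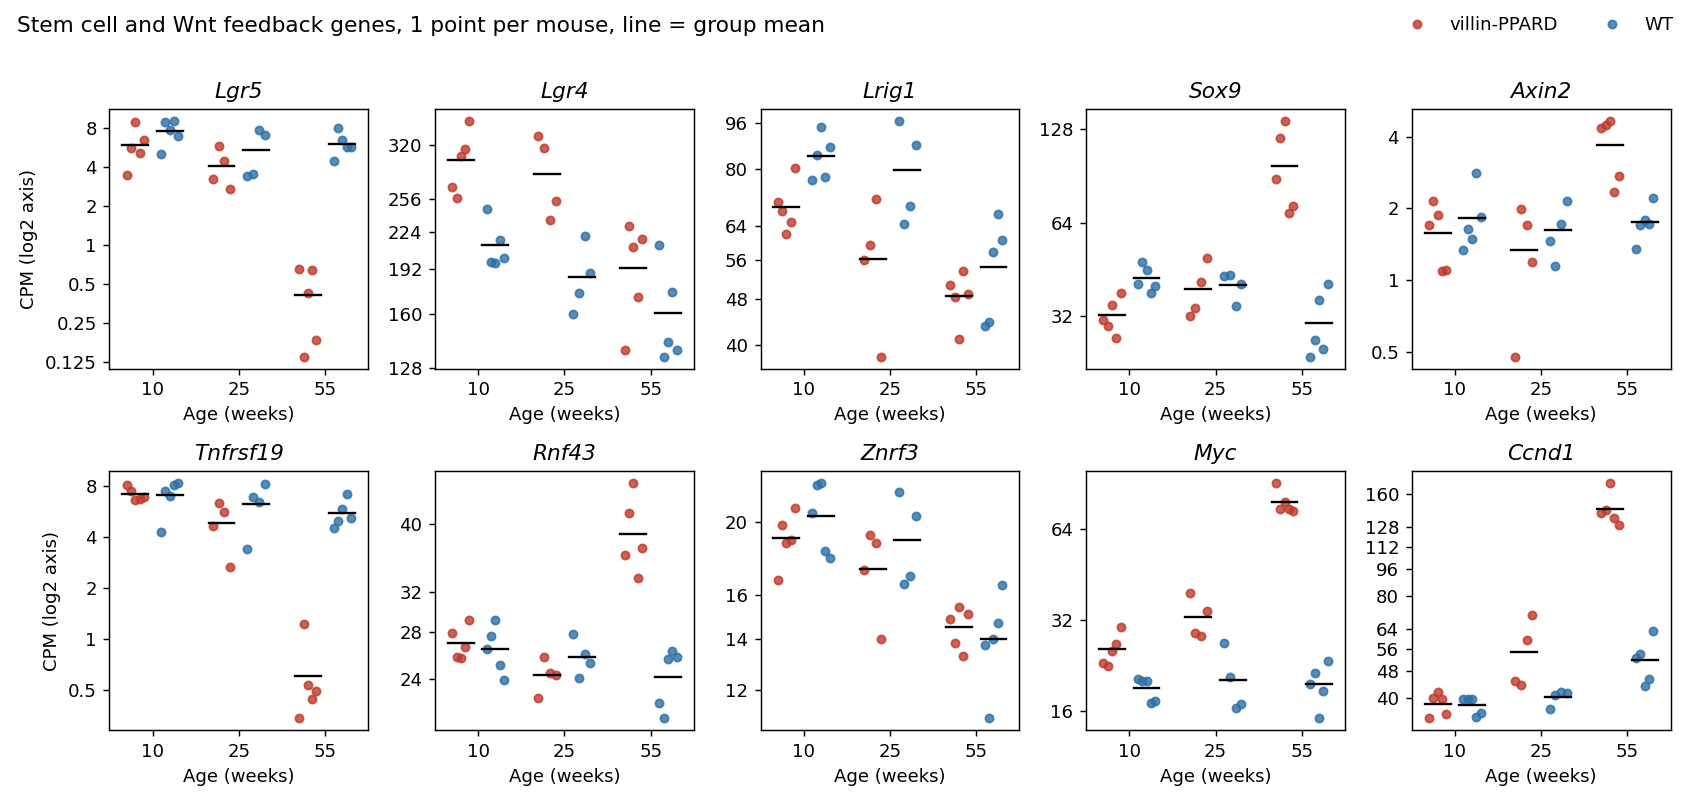
Level in TMM-scaled CPM (log axis) of each of the 10 genes in each of the 28 libraries, by age in weeks and with villin-PPARD left of WT. Each point is a library and each bar is a group mean. Lgr5 and Tnfrsf19 are at 1.23 CPM or less in all 5 villin-PPARD libraries at 55 weeks, while Myc, Ccnd1, Sox9, Axin2 and Rnf43 lie above every WT library of that age.

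Lgr5 (ENSMUSG00000020140, chr10:115450311-115587780, minus strand, GRCm38), the R-spondin receptor of stem cells and of some chief cells, had 0.655, 0.136, 0.423, 0.633 and 0.183 CPM in the villin-PPARD libraries at 55 weeks. The WT libraries of that age had 4.45, 7.98, 6.42, 5.66 and 5.66 CPM. Every villin-PPARD library was therefore far below every WT library, and its counts, 3 to 23 reads a library against 72 to 125, make the villin-PPARD level imprecise. Lgr5 averaged 0.406 ± 0.243 CPM in villin-PPARD and 6.03 ± 1.3 CPM in WT libraries (SD, n = 5 each), 14.4-fold lower, with a log2 difference of -3.85 ± 0.35 (SE) and an adjusted p of 1.549e-10 (edgeR).

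Earlier, Lgr5 was not called. It averaged 5.93 ± 2.01 CPM in villin-PPARD and 7.54 ± 1.62 CPM in WT libraries at 10 weeks (SD, n = 5 each), a log2 difference of -0.34 with a 95% interval of -0.89 to 0.21. At 25 weeks the means were 4.05 ± 1.39 and 5.42 ± 2.25 CPM (SD, n = 4 each), a difference of -0.44 with an interval of -1.08 to 0.20. The genotype difference itself was lower at 55 than at 10 weeks by a log2 value of -3.51 ± 0.44 (SE, edgeR adjusted p = 3.249e-07), and lower at 55 than at 25 weeks by -3.40 ± 0.47 (SE, edgeR adjusted p = 2.717e-06).

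Lgr4 (ENSMUSG00000050199, chr2:109917647-110014257, plus strand), the more widely expressed R-spondin receptor, took the other course, with its called differences at the younger ages. At 10 weeks it had 269.7, 257, 307, 316 and 354 CPM in villin-PPARD libraries, against 246, 198, 197, 216 and 201 CPM in WT libraries. At 25 weeks the villin-PPARD values were 332, 316, 235 and 254 CPM, and the WT values 159.9, 174, 220.5 and 189 CPM. The genotypes did not overlap at either age, and Lgr4 was higher in villin-PPARD by a log2 value of 0.51 ± 0.14 at 10 weeks (SE, edgeR adjusted p = 0.005868) and 0.61 ± 0.16 at 25 weeks (SE, edgeR adjusted p = 0.002698).

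At 55 weeks Lgr4 had 138, 229, 210.2, 171 and 218 CPM in villin-PPARD libraries and 212, 134, 142, 175 and 138 CPM in WT libraries. The groups now overlapped, and the difference of 0.27 ± 0.14 (SE; 95% interval -0.02 to 0.55) was not called. Leaving out villin-PPARD replicate 1 (0.37, edgeR adjusted p = 0.02219) or WT replicate 1 (0.39, adjusted p = 0.01584) brought it past the threshold. Whether the genotype difference was smaller at 55 than at 10 weeks was not shown (-0.24 ± 0.20, SE, edgeR adjusted p = 0.3761). Within the library groups the 10-week difference was 0.41 in the first (adjusted p = 0.07486) and 0.68 in the second (adjusted p = 0.067), the same direction in both with neither called.

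Set against exon length, Lgr4 was the most abundant of the 10 genes in all 6 groups, at 32.8 CPM per kb in villin-PPARD and 27.2 CPM per kb in WT libraries at 55 weeks. Lgr5 had 0.0396 CPM per kb in villin-PPARD and 0.588 CPM per kb in WT libraries of that age. Lgr4 per kb was a median of 866 times Lgr5 per kb in the 5 villin-PPARD libraries, with a range of 367 to 2928.8, against 42.4 times in the 5 WT libraries, with a range of 29.3 to 83.2. At 10 weeks the medians were 95.8 and 44.3 times.

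Tnfrsf19 (ENSMUSG00000060548, chr14:60963875-61046490, minus strand) encodes TROY, a receptor of the tumour necrosis factor family found in Lgr5-positive intestinal stem cells and in a subset of gastric chief cells. It followed the course of Lgr5, with 0.342, 1.23, 0.539, 0.447 and 0.496 CPM in villin-PPARD libraries at 55 weeks, against 4.5, 4.95, 5.88, 7.20 and 5.17 CPM in WT libraries. The highest villin-PPARD library was below the lowest WT library. Means were 0.611 ± 0.353 CPM in villin-PPARD, resting on 12 to 27 reads a library, and 5.54 ± 1.05 CPM in WT libraries (SD, n = 5 each), 9.45-fold lower, with a difference in log2 terms of -3.24 ± 0.28 (SE, edgeR adjusted p = 6.721e-11).

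At 10 weeks Tnfrsf19 averaged 7.17 ± 0.637 CPM in villin-PPARD and 7.07 ± 1.64 CPM in WT libraries, with a log2 difference of 0.03 ± 0.23 (SE). At 25 weeks it averaged 4.84 ± 1.60 and 6.25 ± 2.03 CPM, with a difference of -0.35 ± 0.26 (SE). Neither was called. The genotype difference was lower at 55 than at 10 weeks by -3.27 ± 0.37 (SE, edgeR adjusted p = 3.791e-08) and lower at 55 than at 25 weeks by -2.89 ± 0.39 (SE, edgeR adjusted p = 1.617e-06).

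Lrig1 (ENSMUSG00000030029, chr6:94604529-94700158, minus strand), an inhibitor of growth factor receptors that marks stem cells in several epithelia, was called in 1 genotype comparison. At 25 weeks it had 55.9, 59.4, 71.3 and 38.2 CPM in villin-PPARD libraries, against 96.9, 64.5, 69.2 and 88.1 CPM in WT libraries. The groups overlapped by 1 villin-PPARD library, and the log2 difference was -0.50 ± 0.15 (SE, edgeR adjusted p = 0.01038). The call was lost in several settings. With libraries scaled by totals alone the difference was -0.34 (adjusted p = 0.09485), without villin-PPARD replicate 4 it was -0.38 (adjusted p = 0.05149), and without WT replicate 1 it was -0.39 (adjusted p = 0.05566).

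Lrig1 averaged 69.1 ± 7.09 CPM in villin-PPARD and 84.3 ± 7.35 CPM in WT libraries at 10 weeks, a log2 difference of -0.29 ± 0.14 (SE) that was not called. It was called in an edgeR fit of these groups alone (-0.30, adjusted p = 0.01288) and with limma-voom (-0.30, adjusted p = 0.034). At 55 weeks it averaged 48.5 ± 4.71 and 54.5 ± 10.6 CPM, a difference of -0.17 with a 95% interval of -0.45 to 0.11. Its exons overlap those of Slc25a26 on the opposite strand, which the sequencing kit does not separate. Slc25a26 had far less signal, 4.45 CPM in villin-PPARD and 3.01 CPM in WT libraries at 55 weeks.

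Sox9 (ENSMUSG00000000567, chr11:112782224-112787760, plus strand), a transcription factor of stem and progenitor cells in many epithelia, had 88.4, 120.5, 136, 68.6 and 72.7 CPM in villin-PPARD libraries at 55 weeks. WT libraries of that age had 23.7, 26.8, 36.1, 25.1 and 40.6 CPM. All 5 villin-PPARD libraries were above all WT libraries, and also above the libraries of the other 4 groups. Sox9 was 3.2-fold higher, with a difference in log2 terms of 1.68 ± 0.17 (SE, edgeR adjusted p = 1.913e-09).

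At 10 weeks Sox9 averaged 32.2 ± 4.24 CPM in villin-PPARD and 42.3 ± 4.08 CPM in WT libraries, a difference in log2 terms of -0.40 ± 0.17 (SE, edgeR adjusted p = 0.06943) that missed the threshold. A fit on these groups alone called it (-0.41, adjusted p = 0.005107), and so did one within the first library group (-0.45, adjusted p = 0.04473), whereas the second gave -0.26 (adjusted p = 0.6596). At 25 weeks the means were 39.1 ± 7.93 and 40.5 ± 4.10 CPM, with a difference of -0.05 ± 0.19 (SE). The genotype difference was higher at 55 than at 10 weeks by 2.08 ± 0.24 (SE, edgeR adjusted p = 8.151e-08).

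**Figure D2:**
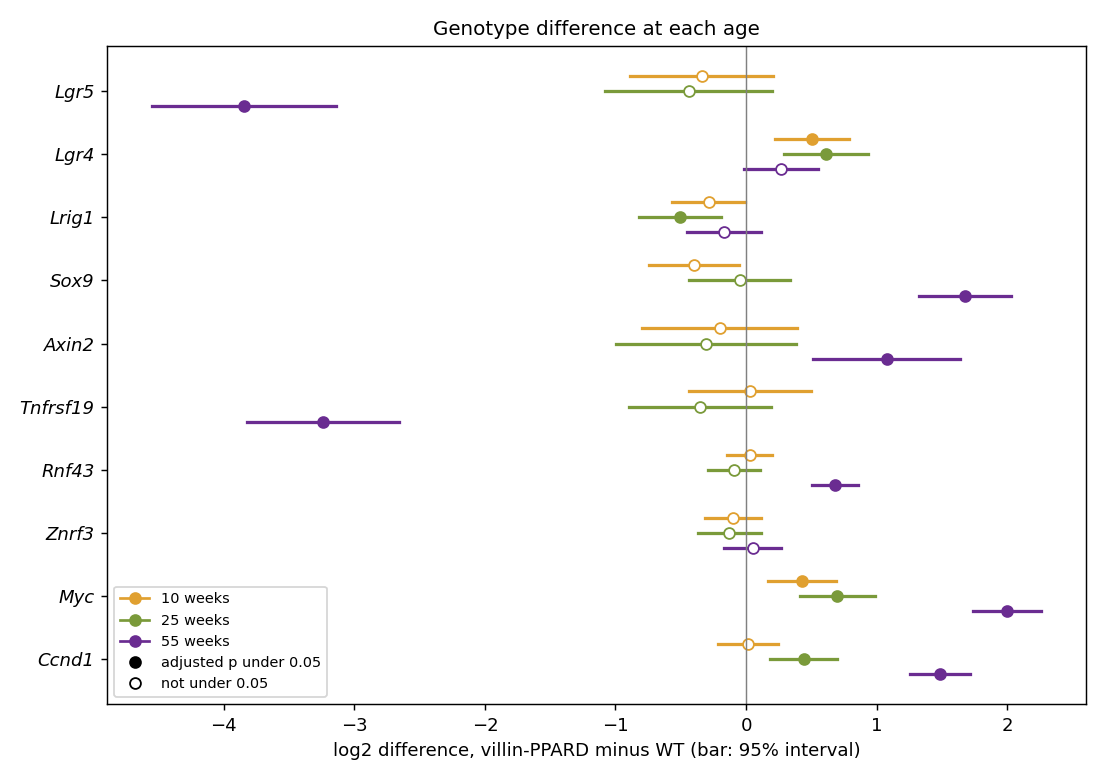
Log2 difference, villin-PPARD minus WT, of each of the 10 genes at 10, 25 and 55 weeks (points) with 95% intervals from the edgeR fit (bars), and filled points for called genes. All 10 intervals at 10 weeks lie within 1 of 0 on the log2 scale, while at 55 weeks Lgr5 and Tnfrsf19 lie below -3 and Myc lies at 2.0.

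Of the feedback genes, Axin2 and Rnf43 rose at 55 weeks and Znrf3 was not called at any age. Axin2 (ENSMUSG00000000142, chr11:108920349-108950783, plus strand), a scaffold for the destruction of beta-catenin and a broad Wnt target, had 4.33, 4.46, 4.66, 2.35 and 2.74 CPM in villin-PPARD libraries at 55 weeks, against 1.35, 1.70, 1.78, 1.72 and 2.21 CPM in WT libraries. The genotypes did not overlap, by a narrow gap between the lowest villin-PPARD and the highest WT library. Gm11670, which overlaps its exons on the other strand, had at most 2 reads in a group. Reads of Axin2 were few, 63 to 152 in a villin-PPARD library and 20 to 38 in a WT library, and Axin2 was 2.11-fold higher, with a difference in log2 terms of 1.08 ± 0.28 (SE, edgeR adjusted p = 0.001256).

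Axin2 averaged 1.59 ± 0.473 CPM in villin-PPARD and 1.83 ± 0.583 CPM in WT libraries at 10 weeks, and 1.34 ± 0.666 and 1.62 ± 0.426 CPM at 25 weeks, with neither difference called (-0.20 and -0.30 on the log2 scale). The library groups gave opposite signs at 10 weeks, 0.39 in the first and -1.10 in the second, also without a call. At that age the second holds only replicates 4 and 5 of each genotype, with 25 and 20 reads of Axin2 in villin-PPARD and 54 and 22 in WT libraries. The genotype difference was higher at 55 than at 10 weeks by 1.28 ± 0.40 (SE, edgeR adjusted p = 0.01218), and within the second library group alone by 2.18 (adjusted p = 0.001852). Set against 25 weeks the change was 1.38 ± 0.44 (SE, edgeR adjusted p = 0.01682), but 1.22 with an adjusted p of 0.05283 without WT replicate 4 of 25 weeks.

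Rnf43 (ENSMUSG00000034177, chr11:87662722-87735539, plus strand) had 36.1, 41.5, 45.9, 33.5 and 37.0 CPM in villin-PPARD libraries at 55 weeks, against 22.2, 21.1, 25.7, 26.3 and 25.8 CPM in WT libraries. These villin-PPARD libraries were above every other library of the study, including those of the younger ages. The step was modest, 1.6-fold, with a difference in log2 terms of 0.68 ± 0.09 (SE, edgeR adjusted p = 6.147e-08). At 10 weeks Rnf43 averaged 27.0 ± 1.46 CPM in villin-PPARD and 26.5 ± 2.05 CPM in WT libraries, and at 25 weeks 24.3 ± 1.33 and 25.8 ± 1.57 CPM. The genotype difference was higher at 55 than at 10 weeks by 0.65 ± 0.12 (SE, edgeR adjusted p = 7.81e-05), and within the second library group alone by 0.49 (adjusted p = 0.05956), which missed the threshold.

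Znrf3 (ENSMUSG00000041961, chr11:5276324-5444847, minus strand), the paralogue of Rnf43, did not share that step. It had 14.9, 13.8, 15.4, 13.3 and 15.1 CPM in villin-PPARD libraries at 55 weeks, against 13.8, 11, 14, 14.7 and 16.5 CPM in WT libraries. The groups lay over each other, with a log2 difference of 0.05 ± 0.11 (SE) and a 95% interval of -0.17 to 0.27. Per kb of exon, Rnf43 was a median of 3.03 times Znrf3 in villin-PPARD libraries (range 2.92 to 3.61) and 2.15 times in WT libraries (range 1.88 to 2.30) at 55 weeks. At 10 weeks these medians were 1.68 and 1.56 times.

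Myc (ENSMUSG00000022346, chr15:61985391-61990374, plus strand), a growth-promoting transcription factor and Wnt target, was called higher at all 3 ages. At 10 weeks it had 23.1, 22.4, 25.2, 26.6 and 30.3 CPM in villin-PPARD libraries, against 20.3, 20.1, 20.1, 17.0 and 17.2 CPM in WT libraries. At 55 weeks the villin-PPARD libraries had 91, 74.2, 78.7, 74.4 and 73.3 CPM and the WT libraries 19.6, 21.2, 15.1, 18.6 and 23.4 CPM. The genotypes did not overlap at any age, and the 55-week villin-PPARD libraries stood above all others.

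In log2 terms Myc differed by 0.43 ± 0.13 at 10 weeks (SE, edgeR adjusted p = 0.009238), 0.70 ± 0.14 at 25 weeks (SE, edgeR adjusted p = 0.0003045) and 2.0 ± 0.13 at 55 weeks (SE, edgeR adjusted p = 6.235e-14). The 25-week means were 32.7 ± 5.20 CPM in villin-PPARD and 20.2 ± 4.79 CPM in WT libraries (SD, n = 4 each). At 10 weeks the library groups differed in size, with 0.26 in the first (adjusted p = 0.2742) and 0.74 in the second (adjusted p = 0.00839). The genotype difference was higher at 55 than at 10 weeks by 1.57 ± 0.18 (SE, edgeR adjusted p = 3.981e-08).

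Ccnd1 (ENSMUSG00000070348, chr7:144929931-144939925, minus strand), cyclin D1, which drives cells through the first gap phase of the cell cycle, had 141, 144, 174, 136 and 129.6 CPM in villin-PPARD libraries at 55 weeks. WT libraries of that age had 52.5, 54.1, 43.5, 45.5 and 63.1 CPM, so the lowest villin-PPARD library was above the highest WT library. Ccnd1 was 2.8-fold higher, with a difference in log2 terms of 1.48 ± 0.11 (SE, edgeR adjusted p = 2.926e-12). At 10 weeks it averaged 38.5 ± 2.96 CPM in villin-PPARD and 38.1 ± 2.26 CPM in WT libraries, a log2 difference of 0.01 ± 0.11 (SE).

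At 25 weeks Ccnd1 had 44.9, 43.8, 59.4 and 70.6 CPM in villin-PPARD libraries, against 37.2, 40.7, 41.6 and 41.3 CPM in WT libraries. The groups did not overlap, and the log2 difference of 0.44 ± 0.13 was called (SE, edgeR adjusted p = 0.006414), but it was 0.28 with an adjusted p of 0.07697 without villin-PPARD replicate 4. The call was also lost in a fit of these groups alone (0.38, adjusted p = 0.06978) and with limma-voom (0.29, adjusted p = 0.05541). The genotype difference was higher at 55 than at 10 weeks by 1.47 ± 0.16 (SE, edgeR adjusted p = 1.726e-08). Exons of Ccnd1 overlap Oraov1 on the other strand. Oraov1 averaged 19.2 ± 1.82 CPM in villin-PPARD and 24 ± 1.85 CPM in WT libraries at 55 weeks, a log2 difference of -0.33, smaller than the shift between scalings, while Ccnd1 rose.

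Of the changes of the genotype difference from 10 to 55 weeks, 5 of 10 members were called higher and 2 lower, where 18.4% and 18% of all genes were. From 25 to 55 weeks the counts were again 5 higher and 2 lower, against 14.3% and 14.6% of all genes. Scaled by totals alone, 79.6% of the called changes from 10 to 55 weeks were higher (50.5% with TMM), and 73.4% of those from 25 to 55 weeks (49.3% with TMM). From 10 to 25 weeks 0 members were called, against 0% of all genes higher and 0.00632% lower (1 gene). At an unadjusted p under 0.05 that last comparison had 1 member, Ccnd1, and 1810 genes, and DESeq2 and limma-voom called 0 members. These comparisons share libraries with those of each age.

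Ages were also compared within each genotype. In villin-PPARD libraries all 10 members were called between 55 and 10 weeks, 5 higher and 5 lower, where 27.2% and 24.5% of all genes were called. With libraries scaled by totals alone, 83.1% of the genes called in that comparison were higher (52.6% with TMM). Log2 differences were 1.91 for Ccnd1, 1.62 for Myc, 1.59 for Sox9, 1.23 for Axin2 and 0.52 for Rnf43. They were -3.84 for Lgr5, -3.61 for Tnfrsf19, -0.64 for Lgr4, -0.51 for Lrig1 and -0.39 for Znrf3. For Znrf3 the direction depended on the scaling, with 0.03 when libraries were scaled by their totals alone, and that scaling also ended the calls for Lgr4 (-0.23) and Lrig1 (-0.08).

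In WT libraries 3 members were called between 55 and 10 weeks, 1 higher and 2 lower, against 6.43% and 6.26% of all genes. Scaled by totals alone, 69.9% of the called genes were higher (50.7% with TMM). Lrig1 was at 54.5 ± 10.6 CPM at 55 weeks and 84.3 ± 7.35 CPM at 10 weeks, a difference in log2 terms of -0.63 ± 0.14 (SE, edgeR adjusted p = 0.003593). Znrf3 was at 14 ± 1.98 and 20.3 ± 2.19 CPM, a difference of -0.54 ± 0.11 (SE, edgeR adjusted p = 0.001492). Ccnd1 was at 51.7 ± 7.78 and 38.1 ± 2.26 CPM, a difference of 0.44 ± 0.11 (SE, edgeR adjusted p = 0.01014). Within the second library group these values were -0.60, -0.37 and 0.54, with 0 called, where the 10-week group has 2 libraries. Lgr4 passed the threshold without WT replicate 1 of 55 weeks (-0.52, adjusted p = 0.01548), and Sox9 without WT replicate 5 (-0.61, adjusted p = 0.0237). Lrig1 and Znrf3 were thus called lower with age in both genotypes with TMM, but in villin-PPARD libraries not when scaled by totals alone. The change of their genotype difference between 55 and 10 weeks was not called with TMM (0.12 and 0.15 on the log2 scale). Scaled by totals alone it was 0.49 for Lrig1 (adjusted p = 0.05212) and 0.51 for Znrf3 (adjusted p = 0.0166), the second past the threshold.

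Between 25 and 10 weeks 1 member was called in villin-PPARD libraries, against 1.99% of all genes higher and 0.822% lower. It was Ccnd1, at 54.7 ± 12.8 CPM at 25 weeks and 38.5 ± 2.96 CPM at 10 weeks, a difference in log2 terms of 0.50 ± 0.12 (SE, edgeR adjusted p = 0.02238) that was 0.36 (adjusted p = 0.1023) without the 25-week replicate 4, 0.47 (adjusted p = 0.07363) without the 10-week replicate 1 and 0.52 (adjusted p = 0.05767) without the 10-week replicate 2. It was also not called with a term for library group (0.47, adjusted p = 0.06588), within the first library group (0.48, adjusted p = 0.1682) or in a fit of these groups alone (0.51, adjusted p = 0.05422). Myc passed the threshold without the 25-week replicate 3 (0.42, adjusted p = 0.04483). Scaled by totals alone, 94.3% of the called genes were higher (70.8% with TMM). In WT libraries 0 members were called by edgeR, DESeq2 or limma-voom, 0 at an unadjusted p under 0.05, against 0.0126% of all genes higher and 0% lower.

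**Figure D3:**
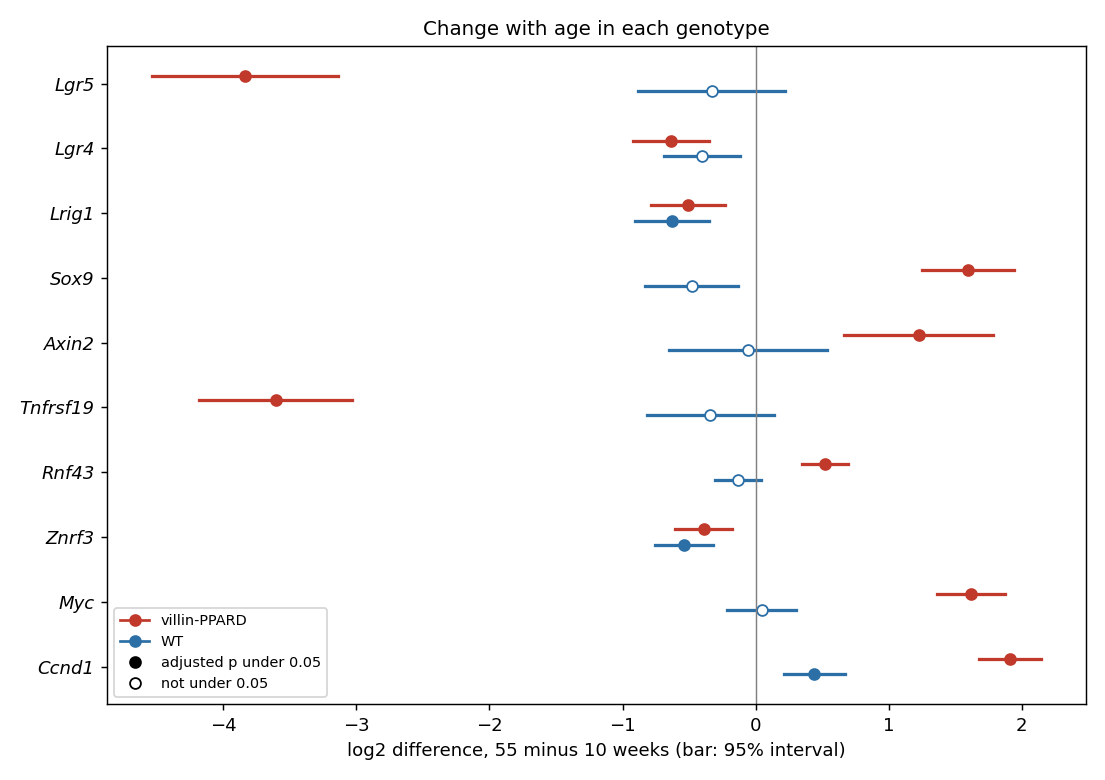
Log2 difference of each of the 10 genes between 55 and 10 weeks in villin-PPARD and in WT libraries (points) with 95% intervals from the edgeR fit (bars), and filled points for called genes. Lgr5 and Tnfrsf19 lie near -3.8 and -3.6 in villin-PPARD libraries and at about -0.3 in WT libraries, and Lrig1 and Znrf3 lie below 0 in both.

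Ordered by level, the 6 groups were separated for some members only. The villin-PPARD libraries of 55 weeks stood lowest for Lgr5 and Tnfrsf19 and highest for Sox9, Rnf43, Myc and Ccnd1, in each case without overlap with the neighbouring group. For Axin2 they stood highest with overlap, and for Lgr4, Lrig1 and Znrf3 every neighbouring pair of groups overlapped. Per kb of exon, the villin-PPARD libraries of 55 weeks ordered the members as Lgr4 (32.8 CPM per kb), Ccnd1 (30.8), Myc (28.8), Sox9 (23.5), Lrig1 (8.69), Rnf43 (5.92), Znrf3 (1.84), Axin2 (0.673), Tnfrsf19 (0.129) and Lgr5 (0.0396). WT libraries of that age had 27.2 CPM per kb of Lgr4, 11 of Ccnd1, 9.76 of Lrig1, 7.37 of Sox9, 7.20 of Myc, 3.69 of Rnf43, 1.77 of Znrf3, 1.17 of Tnfrsf19, 0.588 of Lgr5 and 0.319 of Axin2. Lgr5 thus stood in the last place in villin-PPARD libraries, a place that Axin2 held in the other 5 groups.

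For each member whose group means spanned over 1 on the log2 scale, the 3 genes with the most similar profile over the 28 libraries were found by the root mean square (rms) difference of centred log2 CPM. Closest to Lgr5 were Slc18a2, the vesicular monoamine transporter (rms 0.364), Dtna (0.366) and Peg3, an imprinted gene (0.368). Slc18a2 averaged 0.997 CPM in villin-PPARD and 14.1 CPM in WT libraries at 55 weeks. Tnfrsf19 lay closest to Sntb1 (0.310), Foxa2, a transcription factor of endoderm (0.325), and Kcnj15, a potassium channel (0.346). Foxa2 averaged 10.9 CPM in villin-PPARD and 52.2 CPM in WT libraries at 55 weeks.

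Myc lay closest to Kif23 (rms 0.191), Ckap2l (0.206) and Spag5 (0.234), which act at the mitotic spindle or midbody. Kif23 averaged 50.2 CPM in villin-PPARD and 12 CPM in WT libraries at 55 weeks. Ccnd1 lay closest to Pea15a (0.199), Dok2 (0.203) and Cdkn2a, a locus of cell cycle inhibitors (0.235). Cdkn2a averaged 1.32 CPM in villin-PPARD and 0.065 CPM in WT libraries at 55 weeks, so the pseudocount of 0.5 CPM sets much of its profile. Dok2 was also low, at 2.96 and 0.669 CPM in the same groups. For Sox9 the genes were Bace1 (0.232), Gpc4 (0.258) and Gm10701 (0.263), the last with 0.68 CPM in villin-PPARD libraries at 55 weeks and 0 in WT libraries, where the pseudocount of 0.5 CPM sets much of its profile. Axin2 lay closest to Snai3 (0.287), Amdhd2 (0.300) and Nipsnap1 (0.302).

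Other genes of the pathway were counted in lists. Calls were common among genes of any kind, which sets the scale for every list count below. In either direction, the genotype test called 34.02% of all 15812 genes in the 10-week libraries. That share was 39.6% in the 25-week libraries and 59.32% in the 55-week ones. A list called at about the same rate does not stand out from genes in general. Of 7 tested Wnt ligands, 3 were higher and 2 lower in villin-PPARD libraries at 55 weeks. Wnt4 averaged 59.6 ± 4.32 CPM in villin-PPARD and 18.2 ± 1.84 CPM in WT libraries (log2 difference 1.71, edgeR adjusted p = 4.156e-11). Wnt11 averaged 91.4 ± 14 and 41.4 ± 6.89 CPM (1.14), and was also higher at 10 weeks (0.63) and 25 weeks (0.49). Wnt9a, at 0.348 and 1.42 CPM (-2.02), was lower at all 3 ages. The only tested R-spondin, Rspo4, was called lower at 55 weeks, at 0.0339 and 0.430 CPM (-3.48, edgeR adjusted p = 3.405e-06), with 5 reads in all villin-PPARD libraries together.

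Of 16 tested Wnt receptors and secretion factors, 2 were higher and 4 lower at 10 weeks, 1 higher and 6 lower at 25 weeks, and 7 higher and 4 lower at 55 weeks. Fzd1, a Wnt receptor, was lower in villin-PPARD at 10 weeks (-0.64) and 25 weeks (-0.53) and higher at 55 weeks, where it averaged 27.3 ± 4.08 CPM in villin-PPARD and 6.62 ± 0.872 CPM in WT libraries (2.04, edgeR adjusted p = 1.692e-15). Fzd7 was higher at 55 weeks (2.09) and Fzd10 lower at all 3 ages (-2.62, -2.37 and -2.02). Fzd5 was higher at 10 weeks (0.75) and 25 weeks (0.65) and not called at 55 weeks (0.08). Porcn, which lipid-modifies Wnt proteins, was lower at 25 weeks (-0.88) and higher at 55 weeks (0.84).

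Of 9 tested secreted Wnt inhibitors, 2 were higher and 3 lower at 55 weeks. Sfrp5 was lower at all 3 ages (-1.19, -1.81 and -3.90), and so was Sostdc1, a Wnt and BMP antagonist (-1.43, -1.57 and -6.28), which averaged 0.0293 CPM in villin-PPARD and 3.11 CPM in WT libraries at 55 weeks. At that age the villin-PPARD libraries together held 7 reads of Sfrp5 and 5 of Sostdc1, so the sizes of these last values are uncertain. Of 16 tested genes of the destruction complex and Dishevelled, 8 were higher and 4 lower at 55 weeks. Ctnnb1, beta-catenin, averaged 771 ± 107 CPM in villin-PPARD and 432 ± 74.9 CPM in WT libraries (0.84, edgeR adjusted p = 3.901e-07), and Axin1, the paralogue of Axin2, was higher at all 3 ages (0.73, 0.60 and 0.47). Of 15 tested TCF, LEF and partner genes, 7 were higher and 4 lower at 55 weeks, with Bcl9, a beta-catenin coactivator, at 1.28, Tcf7l1 at -1.62 and the corepressor Tle2 at -2.65.

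Of 14 other genes listed here as intestinal Wnt targets, 1 was higher and 2 lower at 10 weeks, 2 higher and 2 lower at 25 weeks, and 8 higher and 3 lower at 55 weeks. Membership of the list does not show that a gene answered to Wnt in these samples. Cd44, a hyaluronan receptor, averaged 230.4 ± 39.3 CPM in villin-PPARD and 10.2 ± 0.759 CPM in WT libraries at 55 weeks (4.49, edgeR adjusted p = 1.143e-14). Olfm4, an intestinal stem cell marker, averaged 61.5 ± 27.9 and 1.05 ± 0.467 CPM (5.88), and Ephb2, a crypt receptor, averaged 130.7 ± 18.5 and 29.2 ± 4.26 CPM (2.16). Sp5, a transcription factor induced by Wnt, was lower at 10 weeks (-1.22) and 25 weeks (-1.95) and higher at 55 weeks (0.99, edgeR adjusted p = 0.01763). Sox4 was lower at 10 weeks (-0.57) and higher at 55 weeks (0.95).

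**Figure D4:**
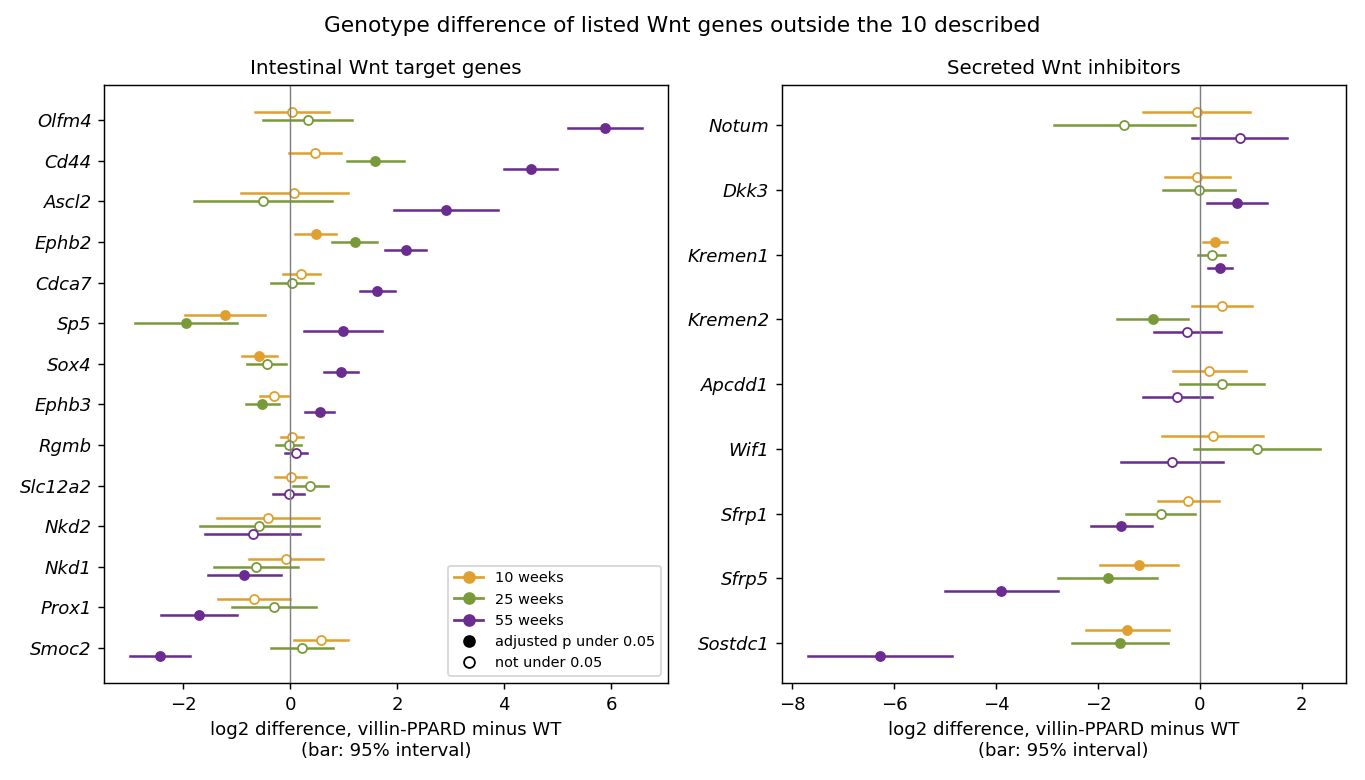
Log2 difference, villin-PPARD minus WT, at 10, 25 and 55 weeks of the tested other intestinal Wnt targets and secreted Wnt inhibitors, grouped by list. Bars are 95% intervals from the edgeR fit, and filled points are called genes. The other Wnt pathway lists are not shown. Of the genes listed as other intestinal Wnt targets, 8 of 14 were called higher at 55 weeks, while the secreted inhibitors Sfrp5 and Sostdc1 lie below 0 at every age.

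Among 14 other gastric stem and progenitor markers, 6 were higher and 4 lower at 55 weeks. Prom1 averaged 506 ± 96.3 CPM in villin-PPARD and 123 ± 13.9 CPM in WT libraries (2.04, edgeR adjusted p = 5.295e-14), and Iqgap3, a marker of cycling isthmus cells, was higher at all 3 ages (0.64, 0.66 and 1.84). Cckbr, the gastrin receptor, was lower at all 3 ages and averaged 0.647 ± 0.542 and 14.6 ± 2.85 CPM at 55 weeks (-4.55). Aqp5, a marker of antral and neck cells, was higher at 10 weeks (1.05) and 25 weeks (1.22) and lower at 55 weeks (-1.26).

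Of 8 tested paralogues of the members, 5 were higher and 0 lower at 55 weeks. Ccnd2, cyclin D2, averaged 399 ± 38.5 CPM in villin-PPARD and 49.0 ± 7.76 CPM in WT libraries (3.03, edgeR adjusted p = 6.468e-16) and was higher at 10 weeks (0.68) and 25 weeks (1.23) too. Mycl (2.07), Lrig3 (0.57) and Eda2r, a relative of Tnfrsf19 (3.98), were higher at 55 weeks, while Ccnd3 (0.20), Lrig2 (-0.05) and Mycn (-0.14) were not called. Eda2r went opposite to Tnfrsf19, at 3.62 CPM in villin-PPARD and 0.254 CPM in WT libraries. Lgr6, Sox8, Sox10 and Edar did not pass the filter.

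Of 20 Myc partners and genes of the first gap phase, 6 were higher and 2 lower at 10 weeks, 8 higher and 1 lower at 25 weeks, and 9 higher and 4 lower at 55 weeks. Mxd4, a Myc antagonist, was lower at all 3 ages (-0.71, -0.93 and -0.31), the last smaller than the shift between scalings. Ccne1, cyclin E1, rose at 55 weeks (2.10), and Cdkn1b, an inhibitor of cyclin-dependent kinases, fell (-0.58). Of 25 proliferation genes, 15 were called higher at 10 weeks, 23 at 25 weeks and 25 at 55 weeks, and 0 lower at any age. Rrm2, which makes deoxynucleotides, averaged 26.9 ± 1.32 CPM in villin-PPARD and 5.80 ± 0.834 CPM in WT libraries at 55 weeks (2.21).

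Markers of corpus cell types differed between genotypes from 10 weeks on. Of 8 tested chief cell markers, 0 were higher and 7 lower at 55 weeks, and the summed level was 343.5 to 1385 CPM in villin-PPARD and 25932.2 to 98998.1 CPM in WT libraries. At 10 weeks the sums were 61193.4 to 82811.6 CPM and 77347.9 to 165077.5 CPM, with 1 of 8 higher and 4 lower. At 25 weeks they were 18585.9 to 68265.9 CPM and 86917.4 to 166454.6 CPM, with 1 higher and 5 lower. A subset of chief cells expresses Lgr5 and Tnfrsf19. The part of the chief cell markers in the 55-week fall of both was not tested. Of 11 parietal markers 11 were lower at 10 weeks, 9 at 25 weeks and 10 at 55 weeks, with 55-week sums of 587.8 to 954 CPM in villin-PPARD and 6322 to 10878.3 CPM in WT libraries, and of 11 endocrine markers 4, 6 and 8 were lower at these ages. Of 9 pit cell markers 3 were higher and 0 lower at 10 weeks, 2 higher and 1 lower at 25 weeks, and 2 higher and 6 lower at 55 weeks, with 55-week sums of 40153.3 to 79811.6 CPM in villin-PPARD and 162034.4 to 215069.3 CPM in WT libraries.

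Of 10 mucous neck and SPEM markers (SPEM is a spasmolytic polypeptide-expressing metaplasia, in which glands take on neck cell features), 3 were higher and 0 lower at 10 weeks, 6 higher and 0 lower at 25 weeks, and 7 higher and 2 lower at 55 weeks. Their summed level at 55 weeks was 27110.5 to 31297.2 CPM in villin-PPARD and 5619.5 to 7912.1 CPM in WT libraries. Cd44 and Olfm4 stand on this list and on that of Wnt targets, and Aqp5 on this list and on that of stem and progenitor markers. The pit cell list shares Gkn3 with this list, and the chief cell list shares Bhlha15 with the stem and progenitor list. Counts of these lists are therefore not independent. The proliferation genes summed to 860.6 to 1032.6 CPM in villin-PPARD and 303 to 334.2 CPM in WT libraries at 55 weeks. The part of either list in the rise of Myc, Ccnd1, Sox9, Axin2 and Rnf43 was not tested.

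Among immune markers 2 of 11 myeloid ones were called higher at 10 weeks and 3 at 25 weeks. At 55 weeks 8 of 11 myeloid, 5 of 5 T and NK, and 6 of 7 B and plasma cell markers were called higher. Summed myeloid markers were 227.7 to 399.6 CPM in villin-PPARD and 91 to 100.1 CPM in WT libraries. Of 12 fibroblast markers 2 were higher and 3 lower at that age, with sums of 497.2 to 895.3 CPM and 615.2 to 757.4 CPM, and of 9 smooth muscle markers 0 were higher and 4 lower. Of 9 endothelial markers, also at 55 weeks, 2 were higher and 2 lower. Of 7 tested intestinal epithelial markers 4 were higher and 2 lower at 55 weeks. The sums of that list, which holds Vil1, were 1105.2 to 1732.9 CPM in villin-PPARD and 504.2 to 722.2 CPM in WT libraries. Of its 11 genes, 2 (Cdx1 and Sis) had no reads in either group at 55 weeks, and the others had reads in both. The part of these cells in the members' differences was not tested.

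**Figure D5:**
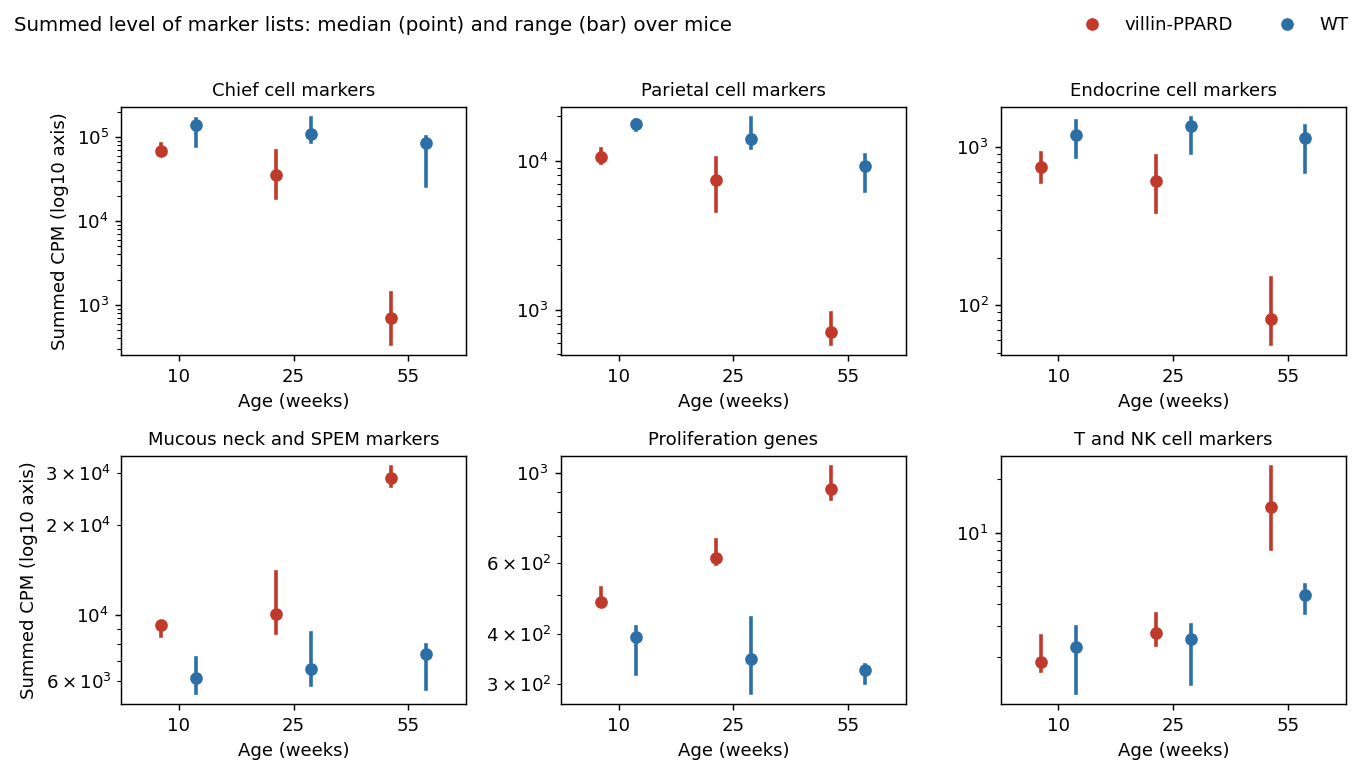
Summed TMM-scaled CPM (log axis) by age in weeks, with villin-PPARD left of WT. The lists shown are chief, parietal, endocrine, mucous neck and SPEM, and T and NK cell markers, and the proliferation genes. Each point is a group median and each bar is the range over the libraries of the group. At 55 weeks the chief cell sums are 343.5 to 1385 CPM in villin-PPARD libraries and at least 25932.2 CPM in WT libraries.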

How the data were processed

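The deposited table holds raw read counts per gene symbol, made by the authors. The submitters' processing notes name the mm10 build, TopHat2 (2.0.14), HTSeq (0.6.1) and, without a version, DESeq2. The libraries were made from poly-A RNA with TruSeq reagents that leave strand unmarked, per the labels' protocols. The annotation used for counting is not given in the sources used here. Libraries held 10982888 to 30891108 counts, and how well few-read genes are measured depends on them.

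From the counts, genes were filtered by group with filterByExpr (15812 of 49492 kept), scaled with TMM and tested with edgeR (4.0.16, R 4.3.3) in 1 robust quasi-likelihood fit of 28 libraries with 6 group means. The standard error is the log2 difference over root F, and there were 10 comparisons. Exon lengths, coordinates and gene identifiers are from the GENCODE annotation of GRCm38, and promoters from RefSeq (GRCm38.p6), where shares of promoters with a motif leave out chromosome 18. The 10 members, the 23 gene lists and the tests were chosen with earlier results of these data known. Named genes are the members, their tested paralogues, Ppard and Vil1, the 3 genes per list with the lowest adjusted p in each genotype comparison, listed Wnt inhibitors and targets called at all ages, and the 3 genes most alike per member. Within groups, WT replicates 2 and 3 of 10 weeks agreed best (chi-square per degree of freedom 4.00, against 13.7 to 150.4 for other pairs), still beyond sampling noise, so both were kept. Alternatives were other scalings, filters, tests (DESeq2 1.42.0, limma-voom 3.58.1), a replicate block, terms for or fits within the library group, and leaving out each library. The fit was tested on simulated counts.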

Additional observations from a re-analysis of the deposited data

Results flagged for a closer look

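In 7 members the genotype difference itself, villin-PPARD minus WT on the log2 scale, changed with age by the test of that change. Of all tested genes, 36.35% were called for the change from 10 to 55 weeks and 28.9% for that from 25 to 55 weeks. From 10 to 55 weeks the change was -3.51 for Lgr5, -3.27 for Tnfrsf19, 2.08 for Sox9, 1.57 for Myc, 1.47 for Ccnd1, 1.28 for Axin2 and 0.65 for Rnf43. From 25 to 55 weeks it was -3.40 for Lgr5, -2.89 for Tnfrsf19, 1.73 for Sox9, 1.38 for Axin2, 1.3 for Myc, 1.04 for Ccnd1 and 0.77 for Rnf43. The 25-week and 55-week libraries lie in different library groups, so the second set of changes cannot be told apart from a genotype difference that varies with library group.

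WT replicate 1 of 10 weeks had 4.28 CPM of Tnfrsf19, well below the other 4 libraries of its group (7.04 to 8.40 CPM). Of 60 sets of libraries looked at in this way it was the only one to stand apart, where chance gives about 1 in 20.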

How the results depend on the processing

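Of 2280 recomputed member values, 2218 kept their side of the threshold, 39 lost a call and 22 gained one. A called value changed sign in 1 case: Znrf3 in villin-PPARD at 55 against 10 weeks, 0.029 when scaled by library totals alone (-0.39 with TMM). The 2218 include 60 uncalled values whose sign differed from that of the fit used here. Members called at 10 weeks (2) were 4 in a fit of the groups compared alone, 4 with limma-voom, 1 within each library group and 0 at 2-fold. At 25 weeks (4) they were 0 at 2-fold and 2 to 4 with 1 library left out, and at 55 weeks (7) 7 to 8 with 1 left out. In villin-PPARD at 25 against 10 weeks (1) they were 0 in the groups alone, with a library group term, within the first library group and at 2-fold, 3 with limma-voom and 0 to 2 with 1 left out. In villin-PPARD at 55 against 10 weeks (10) they were 6 at 2-fold. In WT at 55 against 10 weeks (3) they were 5 in the groups alone, 5 with DESeq2, 0 within the second library group and at 2-fold, and 3 to 4 with 1 left out. For the change from 25 to 55 weeks (7) they were 6 to 7 with 1 left out. The causes were not tested.

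Over all genes, called numbers at 10 weeks (5380) were 2803 and 1891 within the library groups, 1066 at 2-fold and 4334 to 5476 with 1 library left out. At 25 weeks (6262) they were 1789 at 2-fold and 4863 to 6807, and at 55 weeks (9380) 4057 and 8819 to 9245. In villin-PPARD at 25 against 10 weeks (445) they were 914 scaled by totals, 246 with no filter, 208 with the library group term, 2 within the first library group, 1049 with DESeq2, 2961 with limma-voom, 111 at 2-fold and 64 to 1862 with 1 left out, and at 55 against 10 weeks (8180) 3389 at 2-fold. In WT at 25 against 10 weeks (2) they were 1 scaled by totals, in the groups alone, with WT replicates 2 and 3 of 10 weeks as 1, and with limma-voom, 0 with the library group term and 0 to 2 with 1 left out. In WT at 55 against 10 weeks (2007) they were 626 with the library group term, 243 within the second library group, 476 at 2-fold and 1203 to 1972. For the change from 10 to 25 weeks (1) they were 0 scaled by totals, with the replicate block, the library group term, within the first library group and at 2-fold, 45 with DESeq2, 76 with limma-voom and 0 to 32 with 1 left out. From 10 to 55 weeks (5748) they were 3636 within the second library group and 2789 at 2-fold, and from 25 to 55 weeks (4570) 2219 at 2-fold.

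Equal replicate numbers did not pair the libraries: correlations of 14 pairs ran from -0.42 to 0.23, 3 were over 0.1, and 1 pair correlated best with its own number. With the replicate block, members called were 2, 4 and 7 at 10, 25 and 55 weeks, as without it, and all genes called were 4473, 5335 and 8800. Depth limits Lgr5 and Tnfrsf19 in villin-PPARD libraries at 55 weeks and Axin2 in all groups.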
